A study of Mus musculus with 5 samples.

Results

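The genes described here are 30 mouse genes of glycolysis, gluconeogenesis and the hypoxia response, taken by symbol from a written list. They were not chosen by a cut on any measured value, but earlier results of these data were known. All 30 were found among the 28692 genes of the count matrices. They comprise 16 glycolytic enzymes (Hk1, Hk2, Hk3, Gpi1, Pfkl, Pfkp, Pfkm, Aldoa, Tpi1, Gapdh, Pgk1, Pgam1, Eno1, Pkm, Ldha and Ldhb), the 2 regulators Pfkfb3 and Pfkfb4, the 3 transporters Slc16a1, Slc16a3 and Slc2a1, the 4 gluconeogenic enzymes Fbp1, G6pc, Pck1 and Pcx, and the 5 hypoxia genes Hif1a, Bnip3, Egln3, Ankrd37 and Pdk1. The study followed the mouse kidney through reversible unilateral ureteric obstruction (UUO), a surgical blockage of 1 ureter that can later be relieved. Its 4 droplet single-cell libraries were a sham operation (day 0), UUO for 2 days, UUO for 7 days, and a kidney collected 7 days after the obstruction was reversed, which was experimental day 14. All mice were C57/BL6 and 8 weeks old, and each library pooled the kidneys of 3 mice, so individual mice cannot be told apart and the pool is the unit. Every condition was therefore 1 library: the differences below have no replicate check, no test was possible, and all intervals are 95% intervals of counting error only.

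Glycolysis splits glucose to pyruvate in the cytosol, and lactate dehydrogenase interconverts pyruvate and lactate. Gluconeogenesis runs the route backwards with 4 dedicated enzymes, and in the kidney it belongs to the proximal tubule, which normally burns fatty acids and makes rather than consumes glucose. The more distal segments and activated macrophages are known as users of glycolysis. When oxygen is short, the factor encoded by Hif1a escapes degradation and raises transcription of many glycolytic genes, of the glucose transporter gene Slc2a1 and of Bnip3, Egln3, Ankrd37 and Pdk1.

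The core letters that hypoxia-inducible factors bind are ACGTG or GCGTG, and they were searched on both strands (as CACGT or CACGC on the other) in the 250 bases before each RefSeq gene start (build GRCm38.p6). For some genes these starts differ from the gene spans printed below. The Gapdh window lies inside its printed span, and the G6pc window overlaps its printed span. The letters ACGTG overlap the E-box CACGTG, which counts once on each strand. All 30 genes had at least 1 such window, and 25 had a match in at least 1 of them. Of their 43 windows, 32 held a match (74.4%), against 12679 of 32851 windows of all genes (38.6%). The windows of the listed genes were also richer in G and C (median 60.4% against 52.4%). Some windows of the same gene overlapped, as for Aldoa, Eno1 and Pfkm, so the same match could count in more than 1 window. The windows of 4 genes follow, with matches in capitals, read 5′ to 3′ on the gene's strand: Gapdh (chr6:125165774-125166023, minus strand, 2 matches) and Pgk1 (chrX:106186850-106187099, plus strand, 2 matches) encode consecutive glycolytic enzymes that were higher in day 2 phagocytes, Slc2a1 (chr4:119108495-119108744, plus strand, 2 matches) is the glucose transporter gene, and G6pc (chr11:101367466-101367715, plus strand, 0 matches) was lower in the obstructed proximal tubule.
Gapdh: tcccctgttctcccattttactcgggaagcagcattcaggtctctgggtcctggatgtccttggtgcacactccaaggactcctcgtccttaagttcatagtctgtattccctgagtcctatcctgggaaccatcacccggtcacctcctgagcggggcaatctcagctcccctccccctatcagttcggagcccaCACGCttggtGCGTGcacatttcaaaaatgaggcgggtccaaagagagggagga
Pgk1: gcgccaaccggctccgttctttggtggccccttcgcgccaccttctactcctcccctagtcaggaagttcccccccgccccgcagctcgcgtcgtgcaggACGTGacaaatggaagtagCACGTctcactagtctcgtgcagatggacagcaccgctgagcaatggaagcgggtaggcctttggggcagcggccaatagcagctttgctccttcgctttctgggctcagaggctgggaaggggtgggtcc
Slc2a1: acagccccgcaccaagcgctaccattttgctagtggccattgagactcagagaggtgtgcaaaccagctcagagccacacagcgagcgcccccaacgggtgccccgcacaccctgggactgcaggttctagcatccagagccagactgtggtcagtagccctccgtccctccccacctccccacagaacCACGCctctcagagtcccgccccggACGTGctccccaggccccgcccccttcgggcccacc
G6pc: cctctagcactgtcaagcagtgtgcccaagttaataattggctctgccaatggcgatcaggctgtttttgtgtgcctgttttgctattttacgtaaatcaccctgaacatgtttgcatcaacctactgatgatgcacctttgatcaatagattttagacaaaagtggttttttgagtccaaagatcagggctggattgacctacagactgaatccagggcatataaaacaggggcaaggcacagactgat
The first Ldha window (chr7:46845554-46845803) held 5 matches, the Bnip3 window 5 and the Slc16a1 window 4, while Pck1, Fbp1, Tpi1 and Gpi1 had none. A match is a run of letters and not a binding site, no binding was measured here, and a window without these letters says nothing about the factor.

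The deposited matrices held 2739 to 5938 barcodes and 18649637 to 30462683 UMIs (unique molecular identifiers, each marking 1 captured transcript) per library. After filters on genes and mitochondrial UMIs, 3933 cells of the sham library, 2207 of UUO day 2, 4447 of UUO day 7 and 3236 of the reversed library were kept, and any pair of libraries shared 16 to 39 barcodes. Cells were gated on marker panels that contained none of the 30 genes. For doublet removal the tubule gates counted together as 1 lineage, and cells passing more than 1 lineage (45 to 280 per library) were left out. A cell passing several tubule gates was kept, in the gate whose markers were highest relative to the level typical of that gate. Doublets of tubule cells from different segments were therefore not removed. In the order sham, day 2, day 7 and reversed, the proximal tubule gate held 2445, 447, 168 and 1024 cells, the thick ascending limb gate 280, 294, 159 and 223, the phagocyte gate 64, 543, 2378 and 614, and the endothelial gate 204, 157, 470 and 349. All defining markers of these 4 gates had UMIs in every library. Levels are in CPM, the UMIs of a gene per 1000000 nuclear-encoded UMIs of the same gate, and they are given below in that same order of libraries. A gene was called higher or lower where its log2 ratio (pseudocount 1) was at least 1 in size and its interval lay on 1 side of 0, among genes with at least 30 UMIs in the 2 libraries together and 20 CPM in the higher one. Gapdh, Pgk1, Eno1, Aldoa, Ldha, Pkm, Tpi1, Pgam1 and Gpi1 have processed pseudogenes or close paralogs, so their counts carry an uncertainty that the deposited matrices cannot resolve.

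In mononuclear phagocytes the summed level of the glycolytic enzymes was about 2-fold higher on day 2 of obstruction than in the sham library, and on day 7 it was back at the sham level. Of the 14 enzymes with enough UMIs, 5 were called higher on day 2 (7.98% of all genes were) and 0 lower (8.26%). The 16 enzymes together had 3035 CPM in the sham library, 5990 on day 2, 3051 on day 7 and 3030 after reversal, with intervals of 2812 to 3271, 5928 to 6053, 3024 to 3078 and 2980 to 3080. The day 2 library alone stood apart, and the intervals of the other 3 overlapped. The log2 ratio was 0.98 [0.87, 1.09] for day 2 over sham and -0.97 [-0.99, -0.95] for day 7 over day 2, 2 comparisons that share the day 2 library. The sham value rests on 64 cells with a median of 3139.5 UMIs, against 543 cells with a median of 10146 on day 2. Without Gapdh, the most abundant of the 16 on day 2, the sum was 2436, 4288, 2358 and 2326, a log2 ratio of 0.82 [0.69, 0.94] on day 2.

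**Figure D1:**
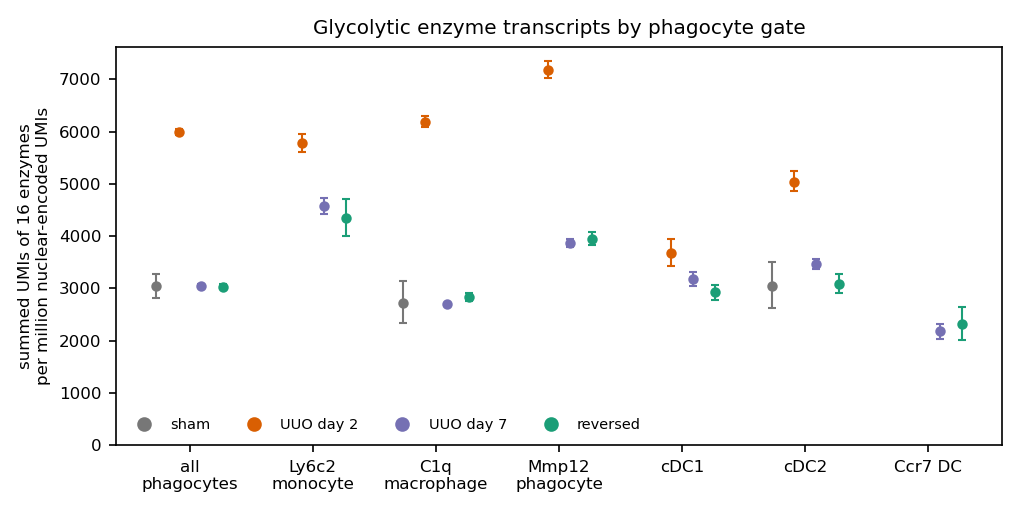
Summed level of the 16 glycolytic enzymes (vertical axis, CPM, UMIs per 1000000 nuclear-encoded UMIs) in each phagocyte gate with at least 10 cells, by library; points are single libraries and bars are exact Poisson 95% intervals. The day 2 library is highest in each of these gates that has a day 2 point, from 3683 in type 1 dendritic cells to 7188 in Mmp12 macrophages.

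Between sham and day 2, 7 of the 23 phagocyte genes with enough UMIs were called higher, against 7.98% of all 5980 genes compared, and 3 were called lower, against 8.26%. The median log2 ratio was 0.65 over these 23 and 0.05 over all genes. Gapdh, glyceraldehyde-3-phosphate dehydrogenase (ENSMUSG00000057666, chr6:125161715-125166467, minus strand), was at 599, 1702, 692 and 704 CPM, a rise of 1.51 [1.26, 1.76] on the log2 scale. Pkm, the pyruvate kinase gene (chr9:59656368-59679375, plus strand), was at 373, 956, 364 and 363, a rise of 1.36 [1.05, 1.68]. Both genes were high in the day 2 library only. Pgk1, phosphoglycerate kinase, had 8.87 CPM in the sham library (2 UMIs) and 40.9, 24.0 and 30.5 afterwards, with a log2 ratio of 2.09 [0.33, 4.35] on day 2. The phosphofructokinase genes Pfkl (1.55 [0.05, 3.5]) and Pfkp (1.56 [0.36, 3.06]) were also called, from 3 and 5 sham UMIs, so their sizes are loosely bounded. Eno1 (enolase) was at 413, 809, 331 and 276, Ldha (the A subunit of lactate dehydrogenase) at 417, 679, 393 and 354, and Aldoa (aldolase) at 413, 646, 356 and 400. These 3 stayed under 2-fold between sham and day 2, but each was highest on day 2. So were the isomerase genes Gpi1 (240, 358, 243 and 241) and Tpi1 (177, 243, 162 and 165), also under 2-fold, and the mutase gene Pgam1 (129, 258, 141 and 153), which was at 2-fold by its levels and just missed the call with the pseudocount of 1. Ldhb, the B subunit of lactate dehydrogenase, had its lowest value then (146, 97.5, 127 and 109).

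From day 2 to day 7, 4 of 21 phagocyte genes were called lower (background 3.34%) and 1 higher (background 5.88%), with a median of -0.58 against -0.08 over all genes. The lower genes were Gapdh (-1.30 [-1.34, -1.26]), Eno1 (-1.29 [-1.34, -1.23]), Pkm (-1.39 [-1.44, -1.34]) and Slc16a3, a lactate exporter, which went from 41.1 to 18.4 CPM (-1.12 [-1.36, -0.88]). Pfkfb3, whose product makes the fructose-2,6-bisphosphate that activates phosphofructokinase, moved the other way, with 22.2, 9.17, 24.1 and 25.4 CPM and a ratio of 1.30 [0.93, 1.70] from day 2 to day 7. Hk2, the hexokinase gene with most UMIs in these cells, was at 53.2, 51.6, 86.1 and 98.3 and passed no call. Hk3, a hexokinase of myeloid cells, was at 17.7, 15.6, 20.03 and 25.6, and Pfkfb4, a relative of Pfkfb3, at 44.4, 22.9, 46.0 and 37.5. Hk2 thus had its higher values in the day 7 and reversed libraries, and Pfkfb3 and Pfkfb4 were lowest on day 2. Between day 7 and reversal only Fbp1 among 19 genes was called (2.39, background 1.33% higher and 0.320% lower). Its ratio was 0.00 after an estimate of free RNA was subtracted, which can mean that no level was left in either library. Proximal tubule markers in the phagocyte gate went from 79.3 to 349 CPM in the same comparison. Between sham and reversal 2 genes were called higher and 2 lower of 21 (background 5.89% and 4.54%).

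Hif1a (ENSMUSG00000021109, chr12:73901375-73947530, plus strand) and Slc2a1 were nearly undetected in sham phagocytes. Hif1a had 8.87 CPM in the sham library (2 UMIs), then 72.7, 71.0 and 68.4, a log2 ratio of 2.90 [1.15, 5.16] on day 2 and 2.81 after reversal over sham. Its level therefore did not return with the enzymes. With every cell thinned to 1000 UMIs, 0%, 6.08%, 5.85% and 6.51% of phagocytes had a Hif1a UMI, and 3.12%, 46.6%, 33.6% and 33.9% did before thinning. T cells, which also express Hif1a, gave thinned shares of 0%, 8.08%, 8.53% and 10.2% at median depths of 1723, 3652, 3619 and 3123 UMIs. Their sham share rests on 18 cells and, as in phagocytes, was below the day 2 share. Slc2a1 was at 4.44 (1 UMI), 30.4, 15.3 and 15.2, with a ratio of 2.53 [0.27, 4.83] on day 2. Other hypoxia genes showed no call in phagocytes. Bnip3, a mitophagy receptor, was at 31.1, 25.1, 21.7 and 18.6, and Pdk1, a kinase of pyruvate dehydrogenase, at 13.3, 18.3, 11.9 and 11.2. Ankrd37 stayed between 3.18 and 9.17 and Egln3, an oxygen sensor, between 0 and 4.44.

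The glycolytic sum was lower on day 7 than on day 2 within each phagocyte subset described here. In C1q macrophages, cells with all 3 C1q chains, the glycolytic sum was 2715, 6189, 2691 and 2833, from 26, 167, 1370 and 337 cells. Their log2 ratio was -1.20 for day 7 over day 2, and the 26 sham cells were too few for a ratio. From day 2 to day 7, 8 of 22 genes were called lower in them (background 7.04%) and Pfkfb4 was called higher (1.28, background 7.98%). The lower genes were Gapdh (-1.65), Pkm (-1.66), Eno1 (-1.55), Slc2a1 (-1.24), Pgk1 (-1.20), Pdk1 (-1.15), Pgam1 (-1.13) and Slc16a3 (-1.08). In Ly6c2 monocytes, blood-derived inflammatory cells, the sum was 5775 on day 2 (84 cells) and 4570 on day 7 (116 cells), a ratio of -0.34, and 0 of 20 genes were called in either direction (background 6.13% higher and 2.48% lower). The difference between these ratios has no test. Type 2 dendritic cells went from 5044 to 3460 between day 2 and day 7 (-0.54). Mmp12 macrophages, here any phagocytes with at least 2 Mmp12 UMIs, went from 7188 to 3866 (-0.89). This last gate can share cells with the other subsets, so its lower value is not a separate observation.

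On day 2 the Ly6c2 monocytes and C1q macrophages were close to each other: only Pfkl was called among 21 genes (-1.04, monocytes lower, background 9.63% lower and 4.73% higher). On day 7 the monocytes had the higher level of 5 of 21 genes (background 6.41%) and the lower level of 0 (background 7.27%). Eno1 was at 629 in monocytes and 271 in C1q macrophages (1.21), Pkm at 808 and 314 (1.36), and Hif1a at 132 and 65.1 (1.00). Slc16a3 (1.59) and Pgk1 (1.19) were the other 2. By the glycolytic sum, the day 7 monocytes (4570 CPM) stood between the day 2 monocytes (5775) and the day 7 C1q macrophages (2691). For single genes this order is not shown, since 0 of 20 were called between day 2 and day 7 monocytes.

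Summed over the proximal tubule gate, the gluconeogenic enzymes were lower during obstruction and higher again after reversal, and the glycolytic sum was highest in the sham library and lowest on day 7. The 4 gluconeogenic genes summed to 2647, 1730, 1584 and 2397 CPM, with log2 ratios of -0.61 [-0.67, -0.56] for day 2 over sham, -0.13 [-0.22, -0.04] for day 7 over day 2, 0.60 [0.52, 0.68] for reversed over day 7 and -0.14 for reversed over sham. The members did not move alike. G6pc, the catalytic subunit of glucose-6-phosphatase that releases free glucose (ENSMUSG00000078650, chr11:101367561-101377903, plus strand), was at 472.6, 98.7, 99.2 and 382.1, a fall of log2 -2.25 [-2.46, -2.04] on day 2 and a rise of 1.93 [1.63, 2.25] after reversal. Pck1, phosphoenolpyruvate carboxykinase (chr2:173153048-173159273, plus strand), was at 789, 833, 771 and 768 and passed no call. Fbp1, fructose-1,6-bisphosphatase, was at 1074, 639, 592 and 977 and stayed under 2-fold. Pcx, pyruvate carboxylase of the mitochondrion, was at 311, 159, 122 and 270 and was called only between day 7 and reversal (1.14 [0.86, 1.43]). In the whole gate G6pc, Fbp1 and Pcx shared 1 order, with the sham and reversed libraries above both obstructed ones, and Pck1 did not. Among cells of the first segment (S1), given below, the Pck1 values did have this order and were lowest on day 7.

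With cells thinned to 1000 UMIs, 23.3%, 6.49%, 5.95% and 21.1% of proximal tubule cells had a G6pc UMI, and 51.7%, 26.8%, 33.9% and 59.4% did before thinning, at median depths of 3095, 4962, 5831.5 and 4728 UMIs. T cells, which lack the enzyme, gave thinned G6pc shares of 0%, 0%, 0.341% and 1.18% and unthinned shares of 0%, 0%, 0.341% and 3.94%, the sham shares from 18 cells. The unthinned share in the reversed library exceeded that in the sham library although the G6pc level was lower there, so no order is read from it. The mitochondrial share of UMIs in the gate was 34.2%, 24.8%, 20.01% and 29.5%, and phagocyte markers in the gate summed to 203, 1455, 5492 and 2225 CPM, with all 10 detected in each library; their part in these differences was not tested.

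**Figure D2:**
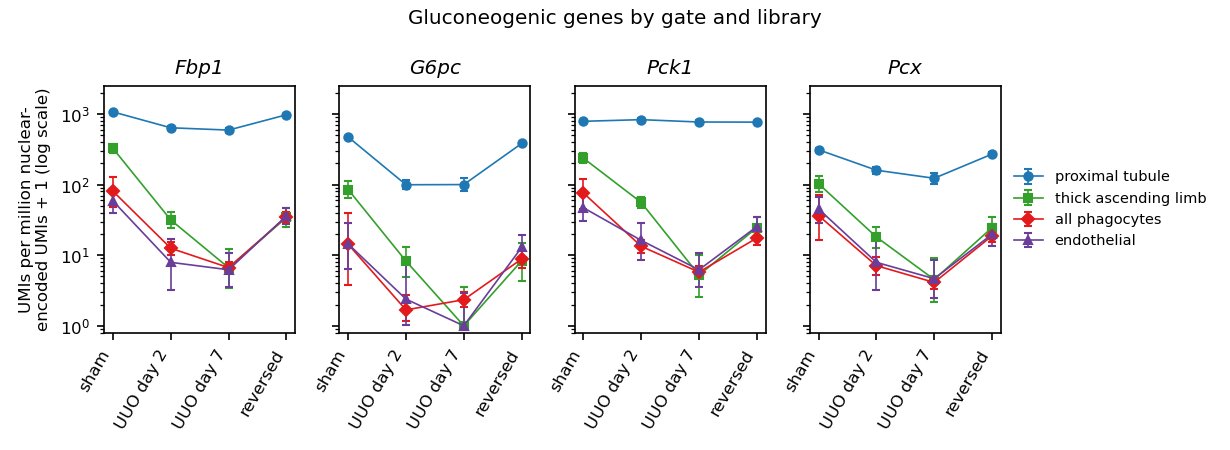
Levels of Fbp1, G6pc, Pck1 and Pcx (CPM plus 1, log axis) in 4 gates and the 4 libraries; bars are exact Poisson 95% intervals. In the proximal tubule Pck1 stays between 768 and 833 while G6pc drops from 472.6 to 98.7, and the low values of the other 3 gates are lowest on day 7, except for G6pc in phagocytes, which is lowest on day 2.

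On day 7 Pck1 differed between segments of the proximal tubule, where the share of listed genes called was near that of all genes. It also differed between marked and unmarked cells. In S1 cells, the first part of the proximal tubule (1207, 270, 60 and 677 cells), the gluconeogenic sum was 2709, 1624, 1136 and 2426, and Pck1 was at 758, 705, 408 and 736. In S3 cells, the last part (264, 6, 42 and 94 cells), the gluconeogenic sum was 2618, 2528, 2099 and 2222. The log2 ratio of reversed over day 7 was 1.10 [0.96, 1.23] in S1 and 0.08 [-0.07, 0.24] in S3 cells, so the higher sum after reversal was seen in S1 and was within counting error in S3, and the difference between the segments has no test. Pck1 in S3 cells was at 920, 1735, 1097 and 873, the day 2 value from 6 cells. S3 cells thus made up a larger part of the day 7 cells than of the day 2 cells. On day 7, Pck1 was higher in S3 than in S1 cells (1.42), the 1 gene of 14 called so, a share near the background of 6.44%. Ldhb was lower (912 against 1826, -1.0), the 1 gene called in that direction, also near the background (8.96%). G6pc in S1 cells was at 563, 112, 102 and 425, so its fall was present within that segment. Slc16a1, a carrier of lactate and pyruvate, was lower in S3 than in S1 cells in the sham library (46.3 against 116, -1.31) and after reversal (46.2 against 127, -1.44). It was the only gene called of 17 and 19, shares near the background (6.21% and 6.07% lower, 5.17% and 4.60% higher).

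Proximal tubule cells with a UMI of the injury markers Havcr1 or Krt20 numbered 4, 87, 48 and 17. On day 7 they had G6pc at 44.0 against 144 in the remaining 120 cells (-1.68 [-2.50, -0.94]) and Pck1 at 350 against 1110 (-1.66 [-1.94, -1.40]), the 2 genes called lower of 16 (background 2.56%), with 0 higher (background 5.01%). On day 2, 0 of 19 were called in either direction (background 1.69% higher and 2.04% lower), with G6pc at 59.7 against 113 and Pck1 at 658 against 896. The marked cells were deeper on day 7 (median 9399.5 against 4838.5 UMIs), which makes a marker UMI more likely to be found. In cells without either marker the gluconeogenic sum was 2647, 1867, 2116 and 2423, so the ratio of day 7 over day 2 was 0.18 there, opposite in sign to that of the whole gate, and that of reversed over day 7 was 0.20. The ratio of day 2 over sham kept its sign at -0.50.

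The proximal tubule glycolytic sum was 5898, 5277, 4895 and 5354, with log2 ratios of -0.16 [-0.19, -0.13], -0.11, 0.13 and -0.14. Without Gapdh the sum was 3950, 3858, 3784 and 3833 and the ratios -0.03 [-0.07, 0.00], -0.03, 0.02 and -0.04. In S1 cells the ratio of day 7 over day 2 with Gapdh had the opposite sign (0.10 [0.03, 0.17]). The sign of all but the last of the ratios of the whole gate depended on how mitochondrial UMIs were treated. Most enzymes stayed within 2-fold: Gapdh was at 1948, 1419, 1111 and 1520, Aldoa at 677, 714, 574 and 551, Eno1 at 380, 321, 317 and 351, Ldha at 496, 531, 567 and 556, and Ldhb at 1178, 1149, 1316 and 1088. Counted over all 30, 2 were called higher and 2 lower of 19 between sham and day 2 (background 5.28% and 2.93%), 0 higher and 1 lower of 19 from day 2 to day 7 (6.16% and 1.90%), 4 higher and 0 lower of 18 from day 7 to reversal (2.59% and 5.08%), and 1 higher and 0 lower of 17 between sham and reversal (3.92% and 0.156%). The medians of these ratios were -0.04, -0.11, 0.18 and -0.05, against 0.02, 0.11, -0.06 and 0.06 over all genes.

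The 2 enzymes called higher on day 2 were scarce in the sham tubule. Pkm was at 13.8, 38.7, 63.2 and 44.6 (1.42 [0.97, 1.87] on day 2, 1.62 [1.26, 1.99] for reversed over sham), and Pfkp, the platelet-type phosphofructokinase, at 5.11, 22.4, 28.4 and 19.1 (1.94 [1.31, 2.56] on day 2). Both were lowest in the sham library and highest on day 7. Phagocyte markers in this gate, given above, were also lowest in the sham library and highest on day 7, and their part in these values was not tested. After an estimate of free RNA was subtracted, the day 2 ratio was 0.00 for Pkm and 2.23 for Pfkp, and neither met the call rule. The Pkm value can mean that no level was left in either library, and Pfkp was then under the minimum of 20 CPM. Pfkl, the liver-type phosphofructokinase, was at 19.4, 28.5, 13.1 and 19.1 (-1.07 [-2.01, -0.20] from day 2 to day 7, 12 UMIs on day 7). Pgk1 was at 44.3, 33.6, 34.9 and 72.9, a rise of 1.04 [0.53, 1.60] from day 7 to reversal.

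Slc16a1 (ENSMUSG00000032902, chr3:104638668-104658462, plus strand) followed the pattern of G6pc in the proximal tubule: it was at 98.2, 47.3, 30.5 and 107.5, a fall of log2 -1.04 [-1.36, -0.73] on day 2 and a rise of 1.78 [1.25, 2.37] from day 7 to reversal. None of the 5 hypoxia genes was called in the proximal tubule, where 2 of them, Hif1a and Bnip3, had enough UMIs. Hif1a was at 36.8, 37.7, 42.5 and 37.7, Bnip3 at 154, 167, 136 and 130, and Egln3 and Pdk1 stayed at or under 5.24. The 5 hypoxia genes summed to 202, 212, 193 and 181. Slc2a1 was between 6.44 and 9.81. Hexokinase transcripts were scarce, with Hk1 at 3.58, 4.58, 1.09 and 7.63.

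The thick ascending limb is the salt-reabsorbing segment of the loop of Henle. In every library it had more of several listed genes than the proximal tubule and less of others. Of the listed genes, 7 of 23 were higher there in the sham library (background 21.8%) and 5 lower (10.4%), 8 of 22 and 5 on day 2 (15.0% and 14.3%), 8 of 23 and 6 on day 7 (15.1% and 13.9%), and 7 of 23 and 7 after reversal (23.7% and 13.8%). The share called higher was closest to its background in the sham library and after reversal. The log2 ratio of limb over proximal tubule was 5.24, 4.76, 5.46 and 4.00 for Hk1, the housekeeping hexokinase, 4.86, 3.39, 2.22 and 2.76 for Pkm, 4.36, 2.24, 1.58 and 2.32 for Pfkp, 3.75, 3.83, 3.48 and 3.27 for Pdk1 and 2.87, 2.75, 2.03 and 2.69 for Slc2a1. Slc16a1 was lower there in every library (-2.17, -3.23, -1.85 and -4.02). Hk1 and Pdk1 were thus higher in the limb in every library. Both were scarce in the proximal tubule, and Hk1 there on day 7 was under 3.27 CPM, the level of 3 UMIs. The sizes of their ratios are therefore loosely bounded, and no change through obstruction is read from them. The differences in Pkm and Pfkp were smallest on day 7, when phagocyte markers in the proximal tubule gate were highest (203, 1455, 5492 and 2225 CPM). The part of these markers was not tested. After free RNA was subtracted, as given above, neither Pkm nor Pfkp met the call rule on day 2 in the proximal tubule. For Pkm no level may have been left in either library, so no equality is read from its ratio. The Pfkp ratio was no smaller than before, but its level was under the minimum of the call rule.

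Across the 4 libraries the glycolytic sum of the limb was 7106, 7366, 5610 and 5103. Hk1 was at 172, 151, 91.0 and 137, Pkm at 428, 414, 299 and 308, Aldoa at 1328, 1219, 1050 and 921.5, and Ldhb at 1947, 2805, 2020 and 1490, with none of these 4 past 2-fold. Hk2 had 0 UMIs in 280 sham cells, where 3 UMIs would have been 4.86 CPM, and 7.79, 24.0 and 30.9 CPM afterwards (15, 34 and 38 UMIs), at least 6.35-fold higher in the reversed than in the sham library. Phagocytes had the highest Hk2 level of the gates compared here, and their markers in the limb gate summed to 191, 873, 3381 and 1600 CPM; their part in the Hk2 values was not tested. Calls in the limb were 0 higher and 5 lower of 22 on day 2 over sham (background 5.17% and 10.3%), 1 and 2 of 20 on day 7 over day 2 (5.00% and 2.26%), 3 and 0 of 21 for reversed over day 7 (3.91% and 1.80%), and 1 and 6 of 23 for reversed over sham (9.10% and 7.00%). The gluconeogenic genes made up 4 of the 5, 2 of the 2, 3 of the 3 and 4 of the 6 calls in those directions. The 2 other genes called lower were Pfkm, muscle-type phosphofructokinase (40.5, 19.7, 7.76 and 17.9; -1.0 on day 2 and -1.14 after reversal), and Bnip3 (152, 94.0, 81.8 and 74.8; -1.02 after reversal over sham).

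Gluconeogenic UMIs were also found outside the proximal tubule, beside proximal tubule markers. Their sum was 749, 110, 13.4 and 87.8 in the thick ascending limb, 204, 30.7, 14.9 and 76.0 in phagocytes and 162, 30.5, 14.1 and 90.2 in endothelial cells. The 12 proximal tubule markers summed to 2661, 270, 62.1 and 401 in the limb, to 825, 114, 79.3 and 349 in phagocytes and to 727, 92.9, 69.4 and 327 in endothelial cells. In T cells the gluconeogenic sum was 76.6, 34.1, 11.3 and 107.3 beside markers at 741, 146, 52.6 and 408. In each of these gates both sums were lowest on day 7, while in T cells the gluconeogenic sum, which rests on 3 UMIs in the sham library, was higher after reversal than in the sham library and the marker sum was lower. Fbp1 (-2.69), Pck1 (-2.51) and Pcx (-2.36) were the 3 of the 30 genes called lower in day 2 phagocytes. After an estimate of free RNA was subtracted their ratios were -1.27, -4.26 and -1.98. None met the call rule, because their levels were then under its minimum of 20 CPM. The part of proximal tubule RNA in these values was not otherwise tested. In the proximal tubule, phagocyte and endothelial gates, the ones it was run in, subtracting an estimate of free RNA ended 12 of 36 single-gene calls. It turned 3 more, all of them endothelial Pck1 or Fbp1. A call could end by a smaller ratio or only by a level under 20 CPM.

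**Figure D3:**
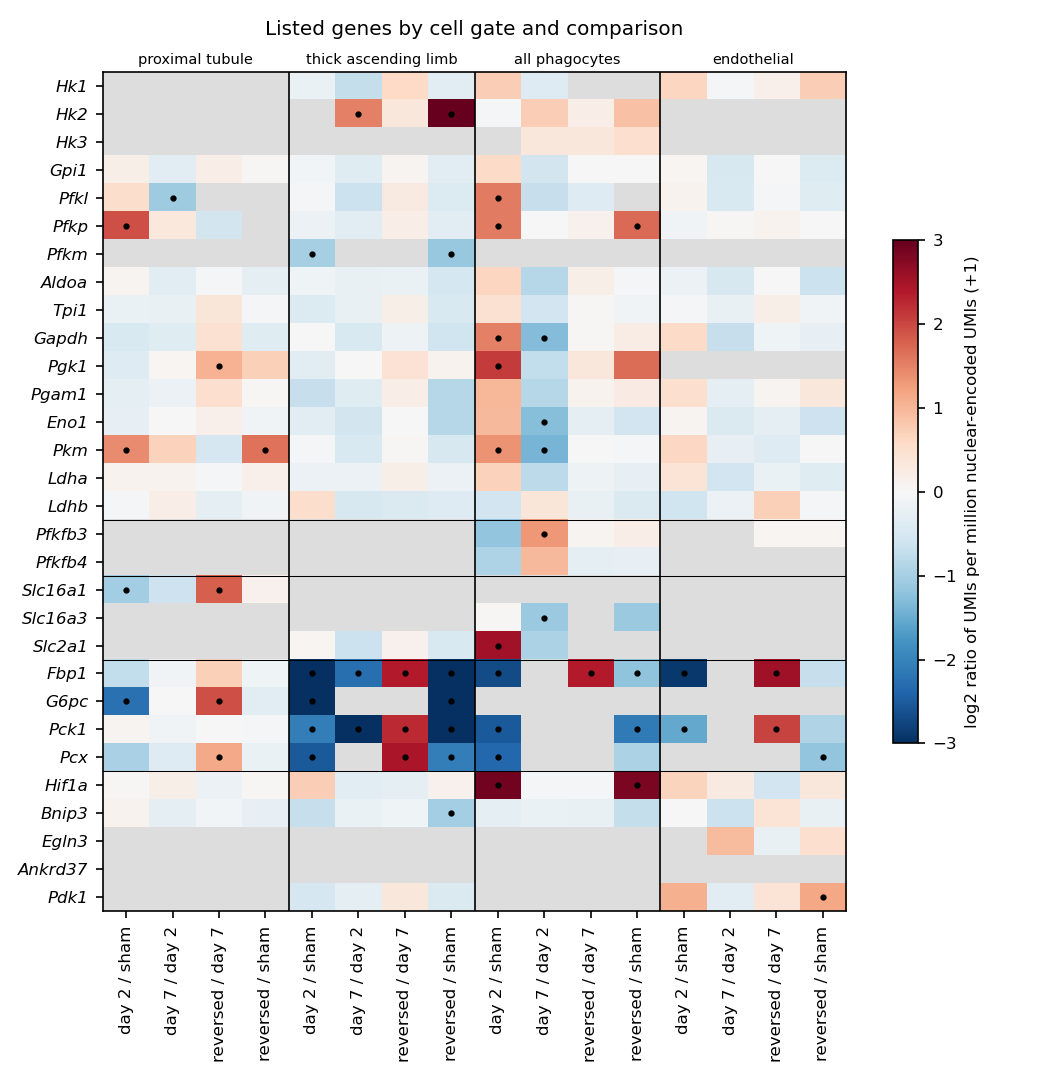
Log2 ratios (colour, limited to -3 to 3) of the 30 genes in 4 gates and 4 comparisons; grey cells had too few UMIs and dots mark calls past 2-fold. The phagocyte column of day 2 over sham is mostly red for the enzymes and the day 7 over day 2 column mostly blue, while the proximal tubule columns are pale apart from G6pc, Slc16a1, Pcx, Pkm, Pfkp, Pfkl and Pgk1.

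The 3 more distal gates had smaller cell numbers (37 to 127 cells per library). The glycolytic sum was 7549, 7414, 5482 and 6403 in the distal convoluted tubule, 8641, 7425, 5405 and 5678 in principal cells of the collecting duct and 11397, 9975, 8418 and 9252 in intercalated cells, the acid-base cells of the duct. In all 3 the value was lowest on day 7. Intercalated cells had the highest sum of any gate, with Ldhb at 4106, 4345, 2945 and 3034 and Aldoa at 2195, 1560, 1401 and 1697. Pfkfb3 in intercalated cells was at 7.77, 39.5, 23.7 and 14.6 (2, 46, 25 and 14 UMIs) and was the gene called higher on day 2 of 21 (2.21, background 5.31%), with 2 gluconeogenic genes lower (6.73%). Neutrophil markers in that gate summed to 0, 212, 159 and 43.8 CPM, with 0, 5, 5 and 5 of 5 detected, and phagocyte markers to 167, 930, 3364 and 1486, with 5, 10, 10 and 10 of 10 detected. The neutrophil sum thus had the same order of day 2, day 7, reversed and sham as Pfkfb3, and its part in the Pfkfb3 values was not tested. Principal cells had the highest Hif1a of these segments, at 324, 255, 220 and 171, and Slc2a1 at 183, 148, 82.6 and 75.8, lower by log2 -1.26 after reversal than in the sham library. That was 1 of 3 genes called lower of 15 there (background 6.92%), with 0 higher (5.52%).

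The isoform shares of lactate dehydrogenase differed between cell types. Each UMI marks 1 captured transcript end, so shares of UMIs need no length scaling, although capture may differ between genes. Ldhb, the subunit of lactate dehydrogenase typical of oxidative tissue, held 70.3%, 68.4%, 69.9% and 66.2% of the lactate dehydrogenase UMIs in the proximal tubule, 86.5%, 91.2%, 89.4% and 84.7% in the thick ascending limb, 26.0%, 12.6%, 24.4% and 23.5% in phagocytes and 28.0%, 16.1%, 20.1% and 32.5% in endothelial cells. The Ldhb share was lowest on day 2 in phagocytes and endothelial cells. Hk2 held 63.2%, 57.2%, 69.8% and 70.7% of the hexokinase UMIs in phagocytes, and Hk1 held at least 76.8% in the limb, the distal convoluted tubule, principal, intercalated and endothelial cells in every library. Hk1 and Hk2 were too scarce in the proximal tubule (5 to 44 hexokinase UMIs) for a share to be read. Pfkp held 14.2%, 40%, 63.4% and 40.6% of the phosphofructokinase UMIs in the proximal tubule and 60.4% to 77.4% in phagocytes. Phagocyte markers in the proximal tubule gate were likewise lowest in the sham library and highest on day 7 (203, 1455, 5492 and 2225 CPM). After free RNA was subtracted Pfkp no longer met the call rule there because of its low level, although its day 2 ratio was no smaller, as given above. The part of these markers in the Pfkp share was not tested.

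**Figure D4:**
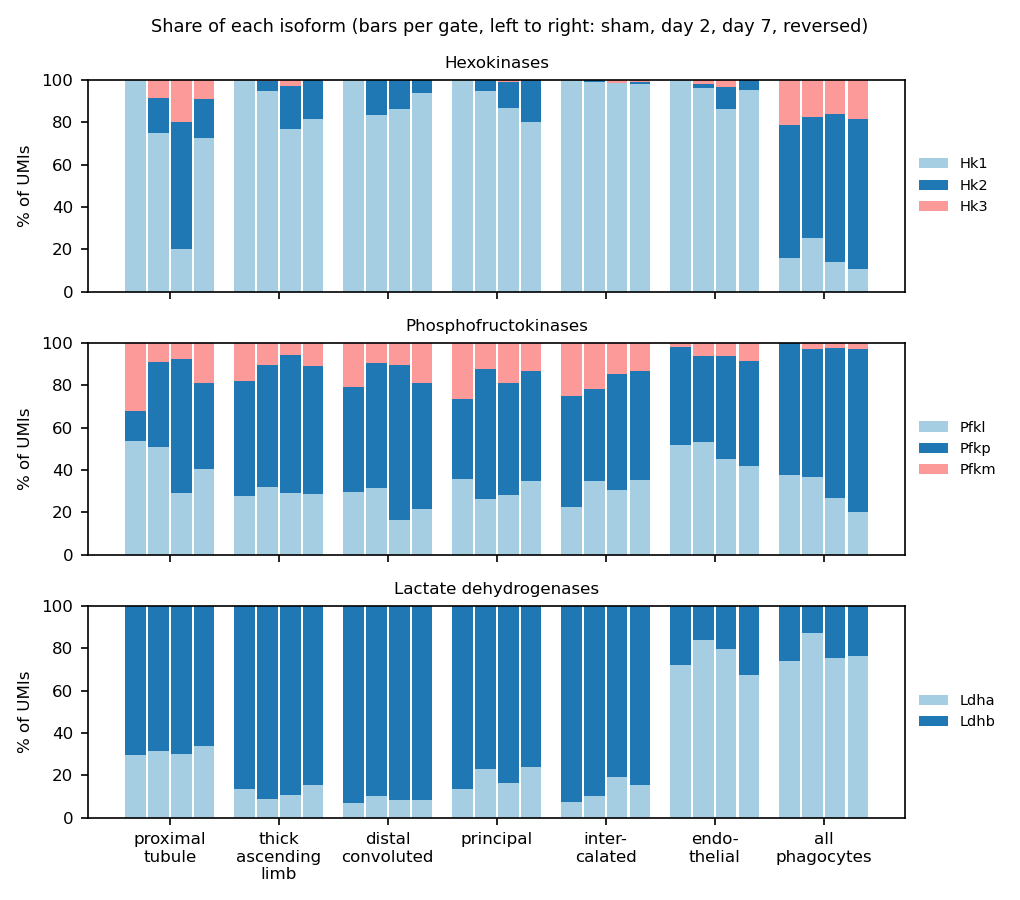
Share of UMIs (vertical axis, %) of each hexokinase, phosphofructokinase and lactate dehydrogenase gene in 7 gates, with 1 bar per library in the order sham, day 2, day 7 and reversed. Ldhb fills most of each tubule bar and Ldha most of each phagocyte and endothelial bar, where Ldhb is 12.6% to 32.5%.

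Endothelial cells showed few calls. Their glycolytic sum was 3044, 3562, 2630 and 2515, with log2 ratios of 0.23, -0.44, -0.06 and -0.28. Gapdh was at 462, 693, 426 and 387, Pkm at 314, 481, 406 and 312, and Ldha at 510, 676, 455 and 395, each highest on day 2 and none past 2-fold. Calls were 0 higher and 2 lower of 17 on day 2 (background 3.26% and 3.89%), 0 of 16 in either direction on day 7 over day 2 (5.32% and 3.24%), 2 and 0 of 19 for reversed over day 7 (1.43% and 1.38%) and 1 and 1 of 20 for reversed over sham (5.45% and 2.91%). Apart from Pdk1 these were the gluconeogenic genes Fbp1, Pck1 and Pcx. The 5 hypoxia genes summed to 137, 194, 219 and 181, with a ratio of 0.50 [0.08, 0.93] on day 2 over sham. Hif1a in all endothelial cells was at 67.3, 107, 128 and 85.2, highest on day 7 and not past 2-fold, and Pdk1 at 15.4, 33.3, 26.6 and 35.7, called for reversed over sham (1.16 [0.14, 2.33], from 8 sham UMIs). In peritubular capillary cells (70, 33, 225 and 165 cells) Hif1a was at 75.1, 181, 126 and 93.1, from 11, 20, 103 and 65 UMIs. It was called there on day 2 over sham (1.26 [0.14, 2.45]), the 1 gene called higher of 8 (background 4.29%), with 0 lower (5.40%). Pdk1 in the same capillary cells was at 27.3, 45.3, 21.9 and 57.3 and was called for reversed over day 7 (1.35 [0.53, 2.20]). It was 1 of 2 genes called higher of 17 in that comparison (background 2.01%), the other being Fbp1, with 0 lower (1.69%).

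Egln3, a prolyl hydroxylase that marks hypoxia-inducible factor for degradation, was more frequent in endothelium than in phagocytes or proximal tubule. It was at 23.1, 19.4, 38.6 and 33.2 CPM in all endothelial cells (12, 14, 74 and 53 UMIs). In peritubular capillary cells it was at 54.6, 36.2, 52.4 and 34.4, and on day 7 it was lower in arterial cells (16.4, 4 UMIs) than in peritubular ones (43 UMIs; -1.62 [-3.36, -0.21]). That was 1 of 14 genes called lower between those vessels on day 7, a share near the background of 6.34%, with 0 higher (3.51%). On day 2, 0 of 10 genes were called (background 6.73% lower and 6.41% higher), and after reversal 0 of 16 (5.99% and 4.17%).

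Of 57 further pathway genes, 33 of glucose handling and 24 of the hypoxia response, most with enough UMIs stayed within 2-fold in the proximal tubule, phagocyte and endothelial gates. In the thick ascending limb, 1 glucose gene was higher and 8 lower of 18 on day 2 (background 5.17% and 10.3%), beside the fall of proximal tubule markers given above, whose part was not tested. In the proximal tubule, 0 glucose genes were higher and 3 lower of 17 on day 2 (background 5.28% and 2.93%), 1 higher and 0 lower of 18 from day 2 to day 7 (6.16% and 1.90%), and 3 higher and 0 lower of 18 from day 7 to reversal (2.59% and 5.08%). The gene higher on day 7 was Slc5a1, a sodium-glucose carrier of the late proximal tubule, which went from 7.63 to 27.3 CPM (1.71 [0.80, 2.63]). S3 cells made up a larger part of the gate on day 7 than on day 2, as given above, and their part in this value was not tested. The other glucose genes called included Slc37a4, the glucose-6-phosphate transporter that works with G6pc, at 105 on day 2 against 245 in the sham library (-1.21), and Slc2a2, the basolateral glucose exporter, which went from 117 on day 7 to 253 after reversal (1.11). Of the hypoxia genes 1 was higher and 2 lower of 14 on day 2 (5.28% and 2.93%): Hmox1, heme oxygenase, was higher (20.9 to 49.4, 1.20), and Ak4 (137 to 37.1, -1.86) and Vegfa (52.4 to 22.4, -1.19) were lower. From day 2 to day 7, 4 were higher and 1 lower of 15 (background 6.16% and 1.90%). Vegfa returned to 54.5 (1.25), P4ha1, a collagen prolyl hydroxylase, went from 15.3 to 48.0 (1.59), Ddit4 from 10.7 to 28.4 (1.33) and Ak4 from 37.1 to 77.4 (1.04), and Ero1l was lower (-1.05). From day 7 to reversal 0 were higher and 4 lower of 15 (2.59% and 5.08%): Bhlhe40 (-1.52), Plin2 (-1.33), Ddit4 (-1.11) and P4ha2 (-1.03). Ak4 on day 7 and P4ha2 were named after their values were seen. The part of the phagocyte markers of this gate in these values was not tested. In phagocytes, 4 hypoxia genes were higher and 1 lower of 11 on day 2 (background 7.98% and 8.26%), among them Hmox1 (39.9 to 207, 2.35), Ddit4 (1.88) and Bhlhe40 (1.26), and from day 2 to day 7 Ddit4 (-1.97) and Hmox1 (-1.61) were the 2 called lower of 10 (background 3.34%). In endothelial cells, 2 hypoxia genes were higher and 1 lower of 12 on day 2 (background 3.26% and 3.89%), with Ddit4, an inhibitor of mTORC1 signalling, at 202 against 50.02 (1.99), Bhlhe40 at 1.36 and P4ha2 at -1.04.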

How the data were processed

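The authors deposited 1 sparse matrix of UMI counts per droplet library, made with Cell Ranger, STAR and the mouse build GRCm38, per the submitters' processing notes; tool versions are not given in the sources used here. Tissue was dissociated in the cold, live cells were sorted with DAPI, and a 3′ droplet kit was used, per the labels' protocols. A plate-based sample of mixed time points was not used. Barcodes under 200 genes or over 50% mitochondrial UMIs were dropped. A lineage gate needed at least 40% of its markers and 20% of the lineage's reference marker level; cells in no gate (269 to 700 per library) were not used, and no doublet caller was run. Summed counts per gate and library gave levels (CPM) with exact Poisson intervals, and ratios had exact conditional binomial intervals (Python 3.11.15, scipy 1.17.1; edgeR 4.0.16 for TMM scaling only). No ratio from a gate under 30 cells is reported. The call rule was tested on simulated data, and the outcome of that is not given here. The 30 genes and all lists were chosen with earlier results of these data known, gate thresholds were set after marker levels were seen, and the contrasts within libraries were added later. All 30 genes were eligible to be named, with at most the 5 largest calls among the further pathway genes per gate and comparison. Results for 1 further gene-defined subset are not reported here. Alternatives are given in the closing section. The free RNA estimate took as its profile the summed counts of all deposited barcodes of a library, not of empty droplets. Its share in a gate was set from markers of other lineages, which doublets can also carry.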

Additional observations from a re-analysis of the deposited data

How the results depend on the processing

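No paired analysis was possible because each group has 1 library, and leaving a library out leaves no comparison. Ratios are log2, in the order day 2 over sham, day 7 over day 2, reversed over day 7 and reversed over sham; counts are listed genes past 2-fold; the cause of each shift was not tested. The alternatives were run in the proximal tubule, phagocyte and endothelial gates only. In the free RNA subtraction no level could turn negative, so a ratio of 0.00 can mean that nothing was left in either library. A call could also end there because the level fell under 20 CPM. Of the 36 single-gene calls there, all remained calls with TMM scaling and with no filter on low values, 34 without the deepest 5% of cells, 32 with cells weighted equally, 31 with at most 20% mitochondrial UMIs and 31 scaled to all UMIs, 30 with a stricter gate, 29 with a pseudocount of 10 and 21 with free RNA subtracted; the others kept their direction but no longer met the call rule, except that free RNA subtraction brought to 0.00 Pkm in the proximal tubule (day 2 over sham), Fbp1 in phagocytes (reversed over day 7) and Fbp1 in endothelium (day 2 over sham) and turned endothelial Pck1 (1.04 on day 2, -1.11 for reversed over day 7) and Fbp1 (-1.40 for reversed over day 7).

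With at most 20% mitochondrial UMIs, the proximal tubule glycolytic ratio was 0.01 (day 7 over day 2), -0.17 (reversed over day 7) and -0.35 (reversed over sham), the gluconeogenic ratio -0.79, -0.36, 0.81 and -0.35, and counts were 2, 0 and 2 in the proximal tubule (all but reversed over day 7) and 1 in endothelium on day 2. Scaled to all UMIs, the glycolytic ratio was 0.03, -0.02, -0.05 and -0.04, the gluconeogenic ratio -0.42, 0.41 (reversed over day 7) and -0.04, and the first 3 counts 2, 0 and 2; the median of all genes moved by 0.17 and -0.18 (day 2 over sham, reversed over day 7). TMM gave glycolytic -0.28, -0.29, 0.25 and -0.33, gluconeogenic -0.73, -0.31, 0.71 and -0.33, and phagocyte -1.01 (day 7 over day 2), and moved the median of all proximal tubule genes by -0.12, -0.20, 0.13 and -0.20 and of phagocyte genes by 0.12 on day 2. The stricter gate gave glycolytic -0.17 and 0.19 (middle 2 comparisons), gluconeogenic -0.40 and 0.42 (day 2 over sham and reversed over day 7) and counts 2, 0 and 2. Free RNA subtraction gave glycolytic -0.02 and -0.09 (day 7 over day 2 and reversed over sham), gluconeogenic -0.51, -0.03, 0.51 and -0.03, phagocyte 1.14 and -1.06 (first 2), and counts 1 and 0 (proximal tubule, day 2 over sham and reversed over sham), 0 and 2 (phagocytes, reversed over day 7 and over sham) and 1, 1 and 1 (endothelium, last 3). Cells weighted equally gave glycolytic -0.17 and 0.21 (middle 2), gluconeogenic -0.53, 0.07 and 0.35 (first 3), and phagocyte -1.04 and -0.04 (middle 2). Without the deepest 5%, glycolytic was -0.20, 0.22 and -0.16 (last 3), gluconeogenic -0.02 and 0.46 (middle 2) and phagocyte -1.0 (day 7 over day 2). Without the filter, counts were 3 and 3 (proximal tubule, day 7 over day 2 and reversed over sham), 5 (phagocytes, reversed over day 7) and 4, 1 and 4 (endothelium, first 3); a pseudocount of 10 gave 0 (proximal tubule, day 7 over day 2), 3 (phagocytes, day 7 over day 2) and 0 (endothelium, reversed over sham).

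Chosen after seeing the data: proximal tubule cells with no Havcr1 or Krt20 UMI gave glycolytic -0.18 and 0.21 (middle 2) and gluconeogenic -0.50, 0.18 and 0.20 (first 3). The sham phagocytes limit precision: 3 UMIs there correspond to 13.3 CPM. Without thinning, 51.7%, 26.8% and 59.4% of proximal tubule cells (sham, day 2, reversed) had a G6pc UMI and 46.6% of day 2 phagocytes a Hif1a UMI.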
